A study of Mus musculus with 8 samples.

Results

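The antigen response of a B cell was compared between cells that differed in the heavy-chain part of their antigen receptor. Follicular (FO) B cells, the recirculating B cells of lymphoid follicles, were taken from mice whose B cells carried a receptor against hen egg lysozyme (HEL). The receptor was either an IgM or IgMG, a chimera in which the extracellular spacer, the membrane-spanning part and the cytoplasmic tail of IgM had been exchanged for those of IgG1. Total RNA was hybridised to 8 arrays. Cells of each receptor were either left without antigen or given HEL, with 2 arrays for each of the 4 combinations. All 4 groups were follicular B cells with the anti-HEL specificity. The strain, the form of the transgene, the age of the mice, and the dose and length of the HEL stimulation are not stated in the labels. All 8 arrays and all 12422 probe sets that were not controls entered, and the brightest 60% by mean signal, 7453 probe sets, were tested. For each probe set the HEL response was the log2 difference between HEL-stimulated and unstimulated arrays, and the quantity reported is the IgMG response minus the IgM response. A negative value means a smaller rise or a larger fall in IgMG cells, and a positive value the reverse.

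As background, antigen binding clusters the receptor, and kinases of the Lyn and Syk families phosphorylate its partners Cd79a and Cd79b. Calcium release, Ras and MAP kinases, and NF-kB then turn on early genes such as the Egr factors, while genes of the resting state such as Klf2 are turned down. Membrane IgM ends in a very short cytoplasmic tail, whereas membrane IgG has a longer tail with a conserved tyrosine motif. Inhibitory coreceptors such as Cd22 limit the signal by recruiting phosphatases.

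The IgM arrays pooled cells from 2 or 4 mice in 1 or 2 sorts, and the IgMG arrays pooled 5 to 8 mice in 2 or 3 sorts, so that receptor and number of mice pooled cannot be told apart. The labels do not say that the 2 arrays of a group came from separate animals, and p-values measure the spread between these arrays. The arrays had median signals of 40.7 to 47.75, and those of a group correlated with r from 0.938 to 0.971 across probe sets. Defining B cell genes (7 of 8 tested) summed to signals between 28275 and 36915 on every array. The ratio of the 5′ to the 3′ Gapdh probe set, a sign of RNA quality, was 0.755 on IgM HEL array 2 and between 0.140 and 0.395 on the others. It was lowest on the IgMG HEL arrays, at 0.221 and 0.140, below both IgM HEL arrays (0.328 and 0.755). Receptor and this ratio therefore did not overlap among the HEL arrays. Natural killer cell markers (10 of 17 tested) summed to 454 to 611 on the IgM arrays and to 696 to 4516 on the IgMG arrays, without overlap. They were highest on IgMG unstimulated array 2, where myeloid markers (20 of 26 tested) summed to 21215 against 4329 to 10568 on the other arrays. Among the HEL arrays myeloid markers summed to 4329 and 7356 with IgM and to 8823 and 10568 with IgMG, also without overlap. Erythroid markers (10 of 14 tested) summed to 18248 to 22716 on the IgM arrays and 17524 to 26889 on the IgMG arrays, and 9 of the 10 had a positive difference of responses, with a median of 0.49. Plasma cell markers (7 of 11 tested) summed to 6173 and 6792 with HEL in IgM cells and to 4106 and 3659 in IgMG cells, most of it from Irf4, against 1088 to 1580 unstimulated. Marginal zone B cell markers (8 of 12 tested) summed to 899 to 1120 on the IgM arrays and 1248 to 1645 on the IgMG arrays. The part of these cell types in the receptor comparison was not tested. Some of the counts, shares and values below are also given without the arrays that stood apart, IgM HEL array 2 and IgMG unstimulated array 2.

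Antigen changed many genes with either receptor. Of the 100 probe sets with the lowest p for a receptor difference, 73 had the smaller response in IgMG cells, against 57.0% of all probe sets. The chemokine genes Ccl4 and Ccl3 and the kinase gene Plk2 had smaller rises in IgMG cells. The stress factor gene Atf4 rose in IgM cells, the transcription factor gene Klf2, the phosphatase gene Dusp6 and the inhibitory coreceptor gene Cd22 fell there, and the changes of these 4 genes in IgMG cells did not pass. No gene passed after adjustment: 0 of 7453 probe sets (0%) had an adjusted p under 0.05 for the difference of responses in limma, and 753 (10.1%) had an unadjusted p under 0.05. Of these, 374 (5.02% of those tested) were negative and 379 (5.09%) positive. With each array centred on its median signal the split was 220 negative and 540 positive, and the median difference over all probe sets moved from -0.02 to 0.08. The values below are therefore descriptions of leading genes, and in bulk RNA fewer responding cells and less RNA per cell cannot be told apart.

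Within each receptor the response itself passed the test widely. At an adjusted p under 0.05, IgM cells had 499 rises (6.7% of probe sets) and 545 falls (7.31%), while IgMG cells had 241 rises (3.23%) and 180 falls (2.42%). Without IgM HEL array 2 the order of these counts turned, and without any other single array it held. Such a run leaves 1 array in a group of 1 receptor, while the other receptor keeps 2 in each group. The counts of the 2 receptors are then unlike, and no conclusion is drawn from their order. With all 8 arrays, both receptors shared 182 of the rises and 118 of the falls, and 0 probe sets were called in opposite directions. To sort the differences without using either receptor alone, each probe set was placed by its mean response over both receptors. The response was smaller in IgMG cells in 67.2% of the 753 probe sets at an unadjusted p under 0.05, comprising 236 smaller rises and 270 smaller falls against 109 larger rises and 138 larger falls. Rise and fall here give only the sign of the mean response, which passed in 266 of the 753. They need not be shared by both receptors: Sema4b counts as a smaller fall, with changes of -2.06 in IgM and 0.41 in IgMG cells. Over all tested probe sets the share was 57.0%. Without both arrays that stood apart these shares were 54.3% and 51.9%. Among the 1513 probe sets whose mean response passed, it was 68.9%.

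The size of the response showed the same order on the arrays. Over the 690 probe sets that rose on average, the mean change was 1.04 and 1.14 (log2) on IgM HEL arrays 1 and 2. It was 0.80 and 0.86 on the IgMG HEL arrays, each against the mean of its unstimulated group. Over the 823 that fell on average, it was -0.86 and -0.97 with IgM, and -0.66 and -0.70 with IgMG. The share of smaller responses rested partly on 2 arrays. Without IgM HEL array 2 and IgMG unstimulated array 2 it was 54.3% at an unadjusted p under 0.05, 51.9% over all probe sets and 57.6% among probe sets whose mean response passed. With the Gapdh ratio as a covariate these shares were 60.3%, 53.7% and 63.8%.

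**Figure D1:**
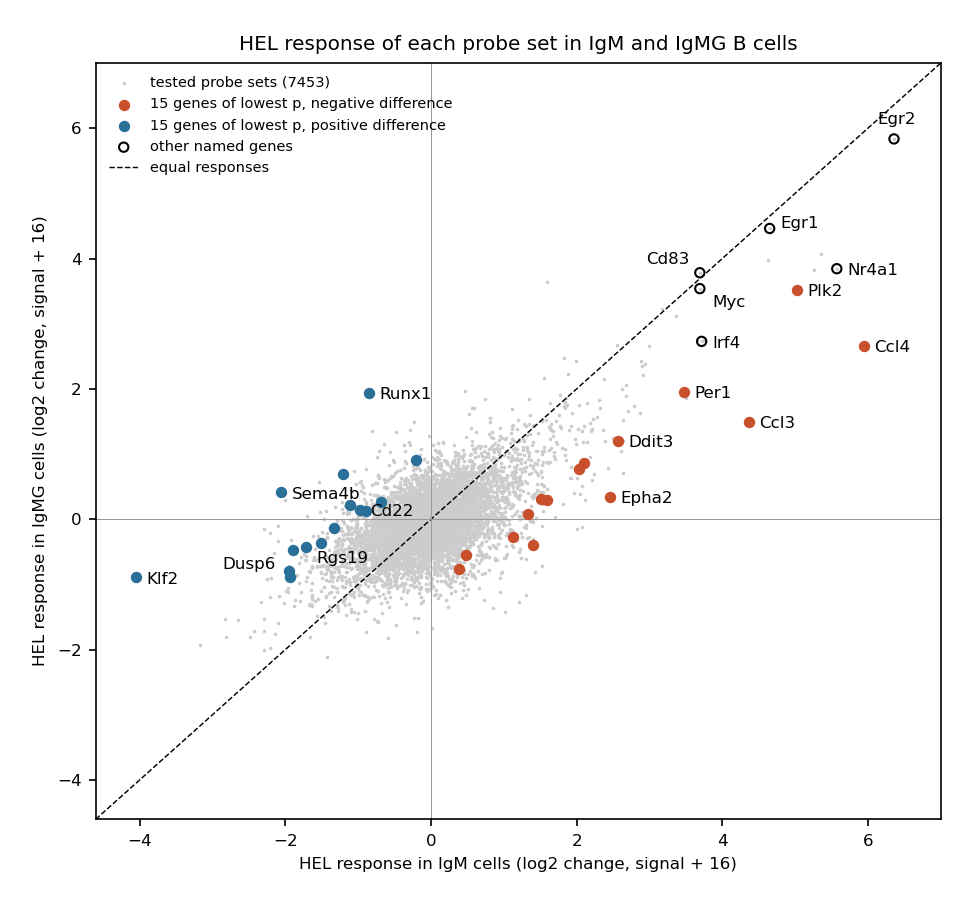
HEL response in IgMG cells (vertical axis, log2) against HEL response in IgM cells (horizontal axis, log2) for 7453 tested probe sets, with the 15 genes of lowest p in each direction coloured and other named genes circled. Ccl4, at 5.94 in IgM and 2.66 in IgMG cells, and Klf2, at -4.05 and -0.89, lie far from the dashed line of equal responses, whereas Egr1 and Cd83 lie near it.

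Ccl4, which encodes a chemokine that draws T cells and myeloid cells, had the smallest p of all probe sets. Its signal was 19.6 and 3.1 on the unstimulated IgM arrays and 1472 and 1704 with HEL. In IgMG cells it was 23.7 and 18.1 unstimulated and 205 and 228 with HEL. The unstimulated arrays of both receptors were all dim, and each IgM HEL array was far above each IgMG HEL array. Ccl4 rose by 5.94 ± 0.28 (SE) in IgM cells (adjusted p = 1.11e-05 in limma) and by 2.66 ± 0.28 in IgMG cells (adjusted p = 0.00163), a difference of -3.28 ± 0.40 with an adjusted p = 0.102. That difference lay between -4.11 and -2.73 over the processing alternatives. It passed with an offset of 64 in place of 16 (adjusted p = 0.00571), without IgM unstimulated array 1 (0.0248), without IgMG unstimulated array 1 (0.0461) and without IgMG unstimulated array 2 (0.0380). An exact two-sided permutation test of the receptor labels, over 36 arrangements, gave p = 0.111 for Ccl4, where the smallest p possible is 0.0556.

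Ccl3 lies next to Ccl4 in the gene table and encodes a chemokine of the same family. Unstimulated signals were 16.8 and 6.4 in IgM cells and 18.6 and 49.1 in IgMG cells. With HEL they were 482 and 606 in IgM cells and 114 and 121 in IgMG cells. The HEL arrays of the receptors did not overlap, and the highest unstimulated value was on the array with the most natural killer and myeloid marker signal. Ccl3 rose by 4.36 ± 0.32 in IgM cells (adjusted p = 0.000119) and by 1.49 ± 0.32 in IgMG cells (adjusted p = 0.0336). The difference was -2.87 ± 0.46 (adjusted p = 0.374 in limma). It passed only without IgMG unstimulated array 1, at -3.33 with an adjusted p = 0.0283, which leaves the array of the high value as the sole unstimulated IgMG array. Without array 2 of that group it was -2.42.

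Plk2, a polo-like kinase of the immediate-early class, was among the strongest responders with both receptors. Its signal was 60.8 and 56.1 without HEL and 2131 and 2717 with HEL in IgM cells, and 69.3 and 45.4 without and 796 and 838 with HEL in IgMG cells. Unstimulated arrays overlapped and HEL arrays did not. Plk2 rose by 5.02 ± 0.21 and by 3.52 ± 0.21, a difference of -1.50 ± 0.29 (adjusted p = 0.412 in limma). Nr4a1, an orphan nuclear receptor gene used as a reporter of antigen receptor signalling, went from 46.3 and 51.6 to 3120 and 3023 in IgM cells and from 48.2 and 142 to 1601 and 1276 in IgMG cells. The difference of its rises was -1.73 ± 0.50 (adjusted p = 0.412). It passed without IgMG unstimulated array 1, at -2.38 with an adjusted p = 0.0283, and was -1.08 without array 2 of that group, the array with the 142.

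Other induced genes had the same form. Irf4, a transcription factor that promotes class switching and plasma cell fate, reached 5440 and 6091 in IgM cells and 3298 and 2894 in IgMG cells from unstimulated signals of 373 to 489, and its difference was -0.99 ± 0.24. Per1, a clock gene, rose by 3.47 ± 0.25 in IgM cells and by 1.95 ± 0.25 in IgMG cells, a difference of -1.52 ± 0.35. Srm, the spermidine synthase gene, rose by 2.61 ± 0.28 in IgM cells and stood at 1.04 ± 0.28 in IgMG cells (adjusted p = 0.0691 in limma). Epha2, a receptor tyrosine kinase gene, was dim on every array but the IgM HEL arrays, at 78.7 and 116 there against 9.0 and 19.9 on the IgMG HEL arrays, and its difference was -2.12 ± 0.49. The MAP kinase gene Mapk7 rose in IgM cells by 1.33 ± 0.18, from 67.1 and 68.2 to 184 and 207, and was 79.3 and 88.9 with HEL in IgMG cells, where its change was 0.08 ± 0.18.

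**Figure D2:**
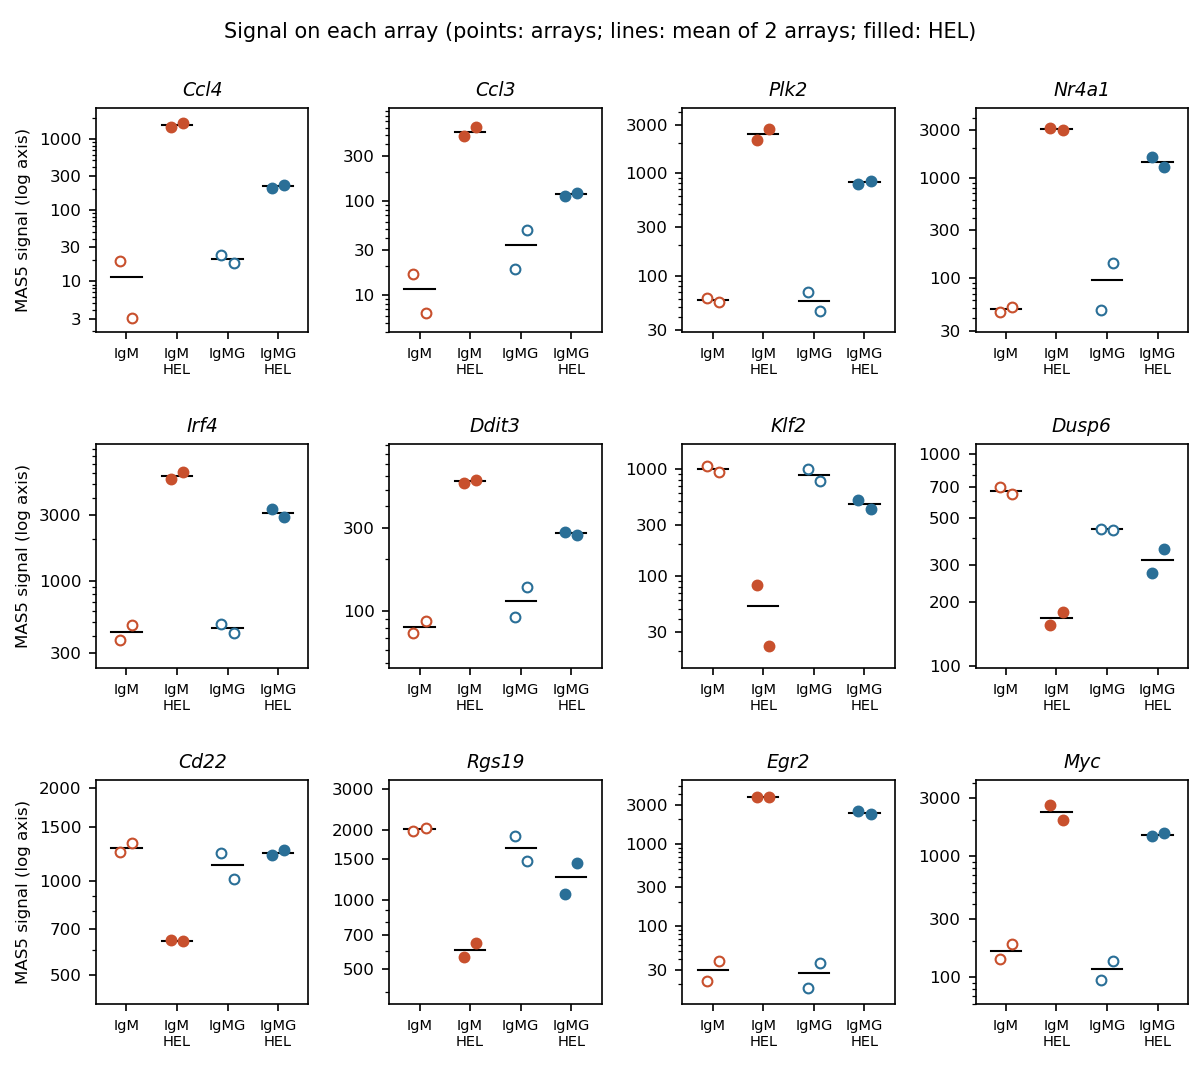
Deposited signal (log axis) of 12 genes on each of the 8 arrays, open points without and filled points with HEL, with a line at the mean of 2 arrays. The Ccl4, Ccl3, Plk2, Nr4a1, Irf4 and Ddit3 panels show IgMG HEL arrays below IgM HEL arrays, the Klf2, Dusp6, Cd22 and Rgs19 panels show them above, and the values of Klf2 with HEL are 83.9 and 22.2 in IgM against 515 and 426 in IgMG cells.

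Atf4, Ddit3 and Slc20a1, members of the endoplasmic reticulum stress and Atf4 list, stood near the top of the genes with a negative difference. The members of that list were chosen with earlier results of these data known. Atf4, a transcription factor translated under amino acid and protein-folding stress, had signals of 719 and 868 in unstimulated IgM cells and 2120 and 2740 with HEL. In IgMG cells it had 1053 and 1267 unstimulated and 1492 and 1344 with HEL. The unstimulated IgMG arrays were thus above the unstimulated IgM arrays, and the HEL arrays were in the reverse order. Atf4 rose by 1.59 ± 0.18 in IgM cells (adjusted p = 0.001 in limma), its change in IgMG cells was 0.29 ± 0.18, and the difference was -1.30 ± 0.26 (adjusted p = 0.412). Its target Ddit3, a factor of stress-induced cell death, rose by 2.56 ± 0.20 and by 1.20 ± 0.20, and the phosphate transporter gene Slc20a1 by 2.11 ± 0.18 and by 0.87 ± 0.18. Of the 20 tested genes of the endoplasmic reticulum stress and Atf4 list, 4 had a negative and 0 a positive difference at an unadjusted p under 0.05. That is 20% of the list, against 10.4% of all 5603 tested genes. The list's median difference was -0.04, and the responses in IgM and IgMG cells were 1.42 and 1.44 for the chaperone gene Hspa5 and 0.62 and 0.59 for Hsp90b1. Both were picked out after their values were seen.

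Among genes that fell, Klf2 stood first by size. Klf2 is a transcription factor that keeps lymphocytes quiescent and supports their recirculation. Its signals were 1071 and 946 in unstimulated IgM cells, 83.9 and 22.2 with HEL, 1011 and 773 in unstimulated IgMG cells, and 515 and 426 with HEL. All unstimulated arrays were high and the HEL arrays of the receptors lay far apart. In IgM cells Klf2 fell by 4.05 on the log2 scale (SE 0.38, adjusted p = 0.000386 in limma). Its change in IgMG cells was -0.89 ± 0.38 (adjusted p = 0.207), although both HEL arrays lay below both unstimulated arrays. The difference was 3.16 ± 0.54 (adjusted p = 0.412), between 2.24 and 3.85 over the alternatives. The array with the high Gapdh ratio carried the lowest Klf2 value. Without it the difference was 2.46, and without the other IgM HEL array it was 3.85 and passed (adjusted p = 0.0221). The exact two-sided permutation test over 36 arrangements gave p = 0.111.

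Dusp6, a phosphatase that turns off ERK kinases, differed in the same direction. Its signals were 696 and 645 unstimulated and 156 and 181 with HEL in IgM cells, and 444 and 439 unstimulated and 275 and 357 with HEL in IgMG cells. The 4 groups did not overlap, and IgMG cells were lower before and higher after HEL. Dusp6 fell by 1.90 in IgM cells (SE 0.18, adjusted p = 0.000393 in limma), and its change in IgMG cells was -0.47 ± 0.18 (adjusted p = 0.159), a difference of 1.42 ± 0.25. Rgs19, a regulator of G protein signalling, went from 1987 and 2048 to 564 and 647 in IgM cells and from 1874 and 1465 to 1060 and 1435 in IgMG cells, a difference of 1.29 ± 0.27. A further Rgs19 probe set had a difference of 0.18 ± 0.29, and the average of both 0.74. The small GTPase gene Rhoh fell with both receptors, with log2 changes of -1.94 in IgM and -0.88 in IgMG cells, and so did Tmem229b, with -1.95 and -0.80. Smc4, a condensin subunit gene, and Myadm, a membrane protein gene, fell in IgM cells, with changes of -1.33 ± 0.19 and -1.51 ± 0.18, against -0.13 ± 0.19 and -0.36 ± 0.18 in IgMG cells.

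Cd22, an inhibitory coreceptor that binds sialic acid and recruits the phosphatase Ptpn6, fell in IgM cells, and its change in IgMG cells did not pass. Its signals were 1242 and 1326 without and 645 and 641 with HEL in IgM cells. In IgMG cells they were 1238 and 1020 without and 1214 and 1265 with HEL. The IgM HEL arrays alone were low, and the other 6 arrays overlapped. Cd22 fell by 0.98 in IgM cells (SE 0.15, adjusted p = 0.00393 in limma), its change in IgMG cells was 0.14 ± 0.15, and the difference was 1.12 ± 0.21 (adjusted p = 0.412), between 0.95 and 1.26 over the alternatives.

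The other receptor and coreceptor genes varied. Ighm, the IgM heavy chain gene, had a difference of 0.12 ± 0.26, Cd79a of -0.12 ± 0.24 and Cd79b of 0.38 ± 0.20. Whether the Ighm probes lie inside the exchanged parts is not known here. Of the 14 tested genes of the receptor list, 0 were negative and 2 positive at an unadjusted p under 0.05, Cd22 and Ighd, the IgD heavy chain gene (0.58 ± 0.24). Downstream, Blnk, the adaptor that links Syk to calcium release, fell by 1.18 in IgM cells, its change in IgMG cells was -0.22 ± 0.18, and a further probe set of Blnk had a difference of the opposite sign. Of 32 tested proximal signalling genes, 3 were negative and 3 positive, with a median difference of 0.02. The shares at an unadjusted p under 0.05 were 14.3% (receptor list) and 18.8% (proximal signalling), against 10.4% of all 5603 tested genes.

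The 250 bases before the start of 5 of these genes are shown because the genes carried large differences or are best known as reporters and brakes of receptor signalling. No promoter entry was available for Ccl4. They come from RefSeq (GRCm38.p6), are written 5′ to 3′ on the gene's strand, and capitals mark motif matches. Both strands were searched for EGR (GCGTGGGCG, GCGGGGGCG), AP-1 (TGAGTCA and its reverse complement), CRE (TGACGTCA) and FoxO (TGTTTAC) letters, and for the kappa-B and CArG motifs. Over all promoters, windows of the same length hold these, in the order named, in 3.06%, 4.46%, 1.55%, 3.17%, 11.3% and 1.47% of 32851 promoters. Klf2 had an EGR match 199 to 191 bases before the start, Nr4a1 an EGR match on the other strand at 60 to 52 bases, and Plk2 a CRE match at 62 to 55 bases, a palindrome. Ccl3 and Cd22 had no match, which says only that these letters are not in this window.
Ccl3, chr11:83649379-83649628, minus strand: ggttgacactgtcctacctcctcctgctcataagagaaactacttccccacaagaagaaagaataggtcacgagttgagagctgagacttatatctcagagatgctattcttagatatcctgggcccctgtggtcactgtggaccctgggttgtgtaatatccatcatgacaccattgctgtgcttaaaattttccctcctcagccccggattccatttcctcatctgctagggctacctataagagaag
Plk2, chr13:110394794-110395043, plus strand: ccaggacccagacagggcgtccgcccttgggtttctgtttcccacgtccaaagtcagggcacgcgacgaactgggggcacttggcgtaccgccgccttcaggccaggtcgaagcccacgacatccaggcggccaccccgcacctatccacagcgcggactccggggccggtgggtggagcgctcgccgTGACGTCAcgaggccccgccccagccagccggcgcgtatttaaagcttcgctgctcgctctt
Nr4a1, chr15:101266596-101266845, plus strand: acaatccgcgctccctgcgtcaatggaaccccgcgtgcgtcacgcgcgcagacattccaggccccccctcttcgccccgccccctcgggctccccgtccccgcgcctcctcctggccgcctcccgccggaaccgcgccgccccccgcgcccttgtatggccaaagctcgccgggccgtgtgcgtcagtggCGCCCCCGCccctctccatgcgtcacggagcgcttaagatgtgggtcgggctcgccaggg
Klf2, chr8:72318812-72319061, plus strand: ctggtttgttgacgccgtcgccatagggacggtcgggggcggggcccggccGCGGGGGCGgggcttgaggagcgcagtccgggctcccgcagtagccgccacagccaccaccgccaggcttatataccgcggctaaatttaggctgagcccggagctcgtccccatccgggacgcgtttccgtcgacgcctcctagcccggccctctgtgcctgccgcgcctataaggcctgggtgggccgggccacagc
Cd22, chr7:30879029-30879278, minus strand: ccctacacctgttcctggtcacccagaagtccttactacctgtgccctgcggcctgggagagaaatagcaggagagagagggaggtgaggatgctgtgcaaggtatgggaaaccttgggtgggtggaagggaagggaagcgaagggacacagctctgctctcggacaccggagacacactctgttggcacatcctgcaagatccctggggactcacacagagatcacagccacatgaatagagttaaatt

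No probe set passed the test in opposite directions with the 2 receptors. In 377 of 7453 (5.06%) the HEL and unstimulated arrays did not overlap in either receptor and lay in opposite order, a count given without a test. With 2 arrays a group such an order also arises where there is no response, so the count is no sign of opposite responses. The genes described next are the remaining leading genes of the receptor comparison. Runx1, a transcription factor of blood cells, had signals of 149 and 180 without and 76.2 and 91.2 with HEL in IgM cells, where the change of -0.85 ± 0.46 did not pass. In IgMG cells it rose by 1.94 ± 0.46 (adjusted p = 0.0456 in limma), from 11.9 and 77.0 to 186 and 172, and its 2 unstimulated values lay far apart. The difference was 2.79 ± 0.65, and it passed without IgMG unstimulated array 2, at 3.66 with an adjusted p = 0.00878, which leaves the array at 11.9 alone in its group. Without the array at 11.9 it was 1.92.

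Sema4b, a membrane semaphorin gene, shared the adjusted p = 0.102 of Ccl4 in limma. It fell by 2.06 in IgM cells (SE 0.22), from 727 and 651 to 192 and 122, and was 245 and 305 unstimulated and 379 and 359 with HEL in IgMG cells. The difference was 2.47 ± 0.31, but both further Sema4b probe sets had the opposite sign, at -0.57 and -0.33, and the average of all 3 was 0.52. Sp1, a general transcription factor, rose in IgMG cells by 0.91 ± 0.18 (adjusted p = 0.0237) and had a change of -0.21 ± 0.18 in IgM cells. The cytokine signalling inhibitor gene Socs5 and the chloride transporter gene Clcn7 rose in IgM cells, by 1.40 ± 0.29 and 1.13 ± 0.22, and their changes in IgMG cells were -0.39 ± 0.29 and -0.27 ± 0.22. A further Clcn7 probe set had a difference of -0.69 ± 0.38. Of the other leading genes, Cnn3, Gfra2, Irgm1 and Mrpl18 had positive differences between 0.95 and 1.91 with falls in IgM cells, and Ddx54 and Pdxk negative ones of -1.19 and -1.27 with rises in IgM cells. Extl3 and Ptpn18, at -1.04 and -1.16, had no passing response with either receptor.

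Among well-known antigen-induced genes, Egr1, Myc and the brightest Cd83 probe set had differences smaller than their errors. Egr1 was 3396 and 2476 with HEL in IgM cells and 2251 and 2620 in IgMG cells, so that the HEL arrays overlapped, and its difference was -0.19 ± 0.40. Myc, at 2635 and 1981 against 1459 and 1537, had a difference of -0.15 ± 0.31, and its unstimulated signals were 95.4 and 136 in IgMG against 140 and 187 in IgM cells. Egr2, the gene of largest rise with either receptor, was 3683 and 3692 against 2505 and 2288 with HEL, and its difference was -0.52 ± 0.35. Cd83, a surface molecule of activated B cells, was 4206 and 3903 against 4093 and 3911, with a difference of 0.09 ± 0.40. A further Cd83 probe set had -2.11 ± 0.79. For Egr1, Myc and Cd83 the sign turned in some alternatives. Cd86, a costimulatory ligand, rose by 2.50 ± 0.41 in IgM cells, stood at 1.24 ± 0.41 in IgMG cells (adjusted p = 0.116 in limma), and had a difference of -1.25 ± 0.58.

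The leading differences lay mostly in the stimulated cells. For 558 of the 753 probe sets at an unadjusted p under 0.05 (74.1%), IgMG and IgM differed more with HEL than without, against 61.8% of all tested probe sets. Their median difference between receptors, regardless of sign, was 0.58 with HEL and 0.28 without. This held for 23 of the 30 leading genes. Klf2 differed by 2.97 ± 0.38 with HEL and -0.18 ± 0.38 without, Plk2 by -1.54 ± 0.21 and -0.04 ± 0.21, and Smc4 by 1.17 ± 0.19 and -0.03 ± 0.19. The other 7 included Socs5 (-0.41 ± 0.29 with HEL, 1.39 ± 0.29 without), Runx1 (0.97 ± 0.46, -1.82 ± 0.46) and Gfra2 (0.80 ± 0.31, -1.11 ± 0.31). In all but 1 of the 30, Plk2, the differences with and without HEL had opposite signs, a relation that the choice by the difference of responses favours.

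**Figure D3:**
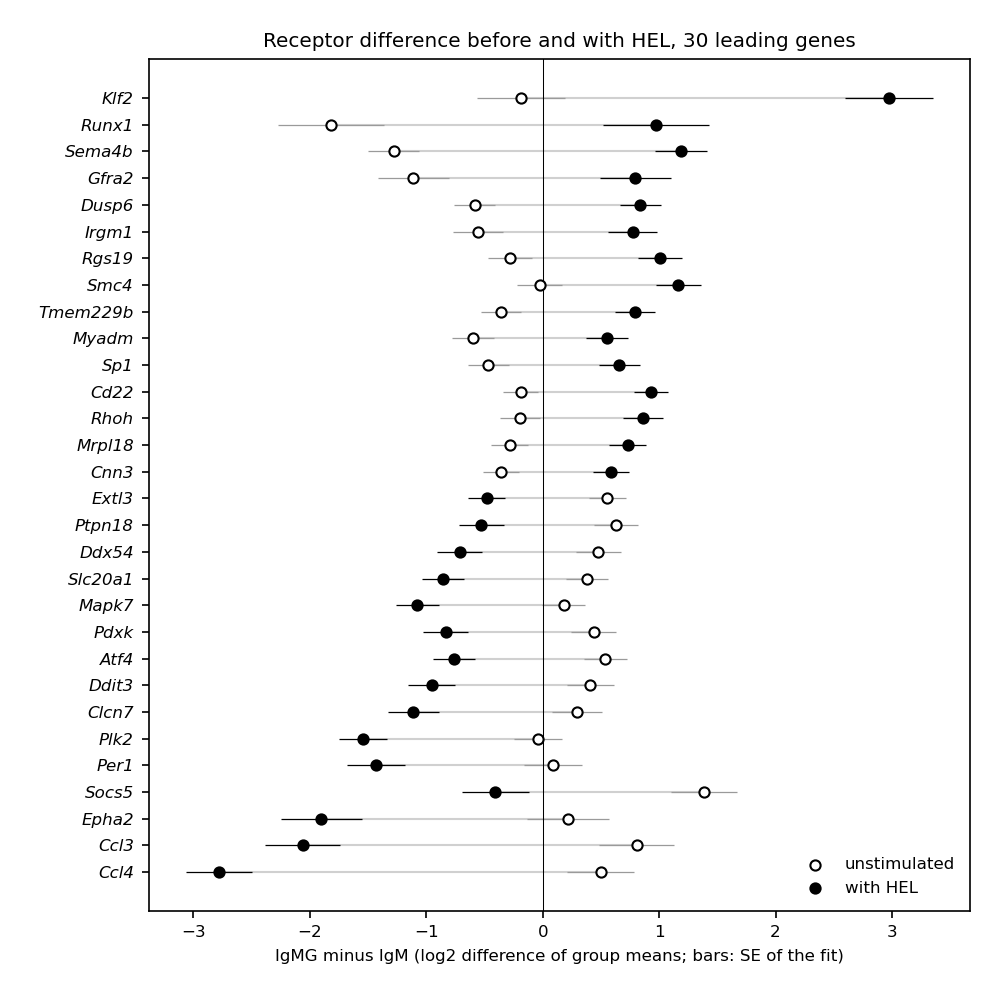
IgMG minus IgM (log2, horizontal axis) without HEL (open) and with HEL (filled) for the 30 leading genes, with standard errors of the fit. Klf2 and Plk2 stand near 0 without HEL and at 2.97 and -1.54 with HEL, whereas Socs5 stands at 1.39 without and -0.41 with HEL.

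Gene groups were described by counts and medians beside all 5603 tested genes, of which 10.4% had an unadjusted p under 0.05 and whose median difference was -0.00. Members of every list were chosen with earlier results of these data known, so the counts and medians are descriptions and no separate support. None of the genes in any list passed an adjusted p of 0.05 for the difference of responses in limma. For the response itself at that threshold, HEL raised 385 of the 5603 with IgM and lowered 471. With IgMG it raised 203 and lowered 161, so the lower counts with IgMG were general. Fewer rises or falls with IgMG in a list are therefore not by themselves a trait of that list. Of 22 tested NF-kB subunits, inhibitors and targets, 9 were negative and 0 positive at an unadjusted p under 0.05, and the median response was 0.85 in IgM and 0.13 in IgMG cells. Besides Ccl4 and Ccl3 the 9 were Nfkbib, an NF-kB inhibitor gene (-0.85 ± 0.24), Nfkbia, the IkB-alpha gene (-0.59 ± 0.23), and Ikbkb, Traf1, Traf2, Rela and Relb, which are named after their values were seen. A further Nfkbia probe set had the opposite sign, at 0.66. The median difference of the list was -0.61 and stayed between -0.73 and -0.43 over the alternatives. In IgM cells 11 of the 22 rose and 4 fell, and in IgMG cells 5 rose and 1 fell. Tnf (1.92 and 1.42), Nfkbiz (2.04 and 1.75) and Cd83 rose with both receptors.

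Immediate-early transcription factors differed within the group. Of 17 tested, 12 rose and 1 fell in IgM cells and 11 rose and 0 fell in IgMG cells, with median responses of 2.32 and 1.57. At an unadjusted p under 0.05, 6 were negative and 2 positive. Nr4a1, Atf3, a stress-inducible factor (-1.65 ± 0.46), and Bhlhe40, a repressor of the clock and of cytokine genes (-1.28 ± 0.38), led the negative ones, while Egr1, Egr2, Fos and Crem had differences between -0.52 and 0.23. The median difference was -0.44, between -0.58 and -0.24 over the alternatives, and the value nearest 0 came without IgMG unstimulated array 2.

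Genes of quiescence and recirculation leaned the other way. Of 22 tested, 11 fell and 3 rose in IgM cells, and 3 fell and 2 rose in IgMG cells, with median responses of -0.92 and -0.45. At an unadjusted p under 0.05, 7 were positive and 2 negative. After Klf2 came Txnip, an inhibitor of glucose uptake and thioredoxin (0.89 ± 0.23, with a further probe set at -0.37), and Ccng2, an atypical cyclin of arrested cells (0.80 ± 0.24). The 2 negative genes were homing receptors, Ccr7, which rose in IgM cells by 1.92 and had a difference of -1.12, and the integrin gene Itgb7, which fell by 0.81 in IgMG cells and had a difference of -0.52. Both were picked after their values were seen. The list's median difference of 0.45 was 0.17 without the 2 arrays that stood apart.

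B cell identity factors included genes that rose and genes that fell. Of 24 tested, 6 were positive and 2 negative at an unadjusted p under 0.05, and the median response was -0.33 in IgM and 0.14 in IgMG cells. The negative ones were Irf4 and Gfi1, a repressor that rose by 5.25 ± 0.36 and by 3.82 ± 0.36. Runx1 led the positive ones. Interferon-stimulated genes had median responses of -0.79 and -0.45: of 28 tested, 12 fell with IgM and 5 with IgMG, and 0 rose. At an unadjusted p under 0.05, 2 of these were positive and 3 negative. Irgm1, a GTPase gene of defence against intracellular microbes, fell by 1.12 in IgM cells and had a change of 0.21 ± 0.21 in IgMG cells, whereas Ifi35 had changes of 0.35 ± 0.22 and -0.72 ± 0.22. Of 15 tested genes of MHC class II presentation 0 had an unadjusted p under 0.05. Of 13 genes of the BCL2 family 2 did (15.4%, against 10.4% of all tested genes). These were Mcl1 (0.61 ± 0.20) and Casp9 (1.23 ± 0.49), both positive, with further Casp9 probe sets at -0.36 and 0.02.

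Of 37 tested genes of the Myc network and ribosome biogenesis, 21 rose in IgM and 13 in IgMG cells and 0 fell, with median responses of 0.94 and 0.69. Of these, 5 were negative and 1 positive at an unadjusted p under 0.05, led by Noc4l, Polr1c and Nolc1, at -0.94, -0.92 and -1.01. Cytosolic chaperones had medians of 0.61 and 0.57, 8 of 23 rose with each receptor, and 1 gene, Hspa4, had an unadjusted p under 0.05, with 3 of its 4 further probe sets of opposite sign. Translation factors (22 tested) had 3 negative and 0 positive, glycolysis genes (16 tested) 3 and 0, and metabolism genes of amino acids, one-carbon units and purines (21 tested) 3 and 0. Of 16 tested genes of sterol and fatty acid synthesis 4 were negative and 2 positive. The positive ones were the desaturase genes Scd1, which rose in IgMG cells by 0.54 ± 0.13 and had a change of -0.18 ± 0.13 in IgM cells, and Scd2, which fell with both receptors, with changes of -3.18 and -1.93. Fdps, an enzyme gene of the mevalonate pathway, was among the negative ones, at -1.30 ± 0.37.

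The remaining lists are given by their counts at an unadjusted p under 0.05. Their shares ran from 15.2% (cell cycle) to 28.6% (secreted cytokines and chemokines), against 10.4% of all 5603 tested genes. MAPK feedback genes (12 tested) had 0 negative and 2 positive, Dusp6 and Rgs19, while Gem, Rgs2 and Dusp2 rose with both receptors. Calcium and NFAT genes (14 tested) had 0 negative and 3 positive, Ppp3ca, Itpr2 and Nfatc3, of which Nfatc3 had unstimulated IgMG signals of 59.1 and 218. Of 14 secreted cytokines and chemokines, 2 were negative, Ccl3 and Ccl4, and 2 positive, Il12a and Il16. Activation surface molecules (14 tested) had 2 negative and 1 positive, the last being Cd200, an inhibitory ligand, which fell by 1.13 in IgM cells and had a change of 0.10 ± 0.26 in IgMG cells. Cell cycle genes (33 tested) had 4 negative and 1 positive, Aurkb, which fell by 2.10 in IgM cells and whose difference was 2.00 ± 0.59.

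**Figure D4:**
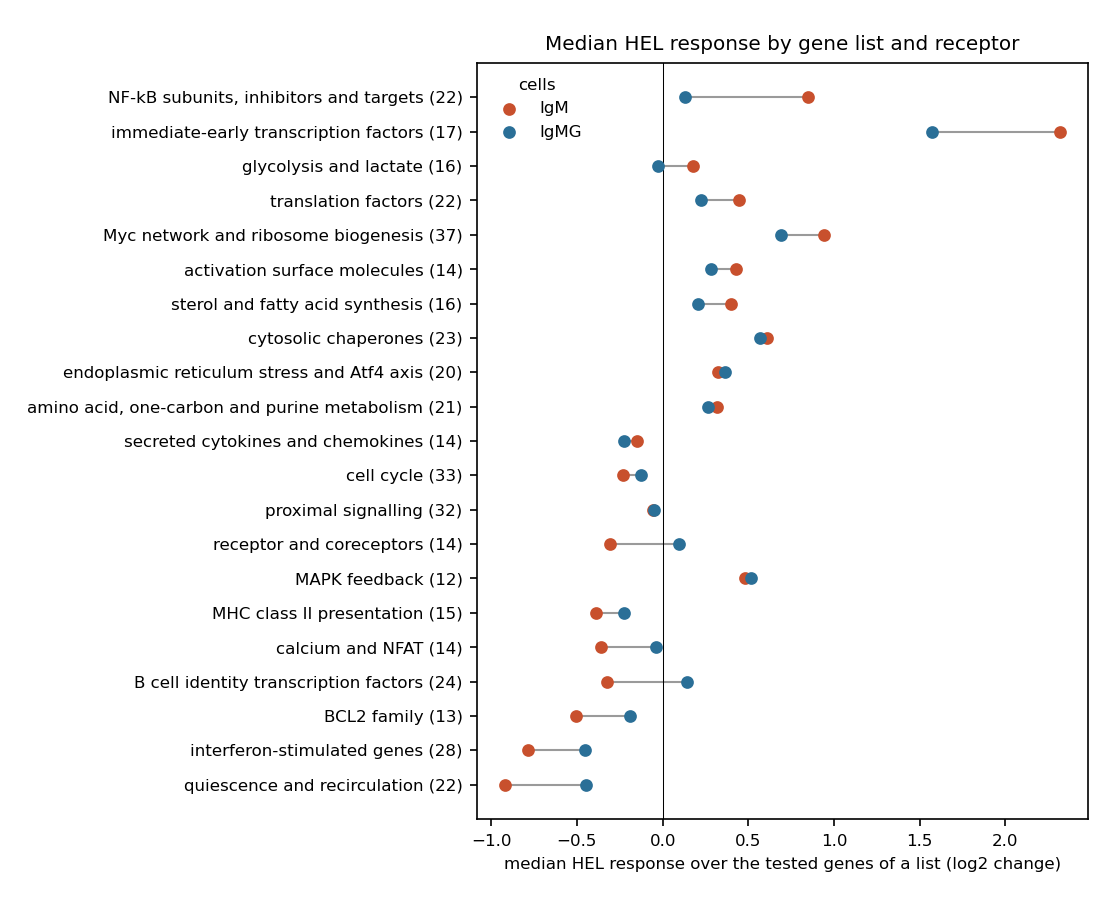
Median HEL response (log2, horizontal axis) over the tested genes of 21 lists, with the number tested in brackets, in IgM (orange) and IgMG cells (blue). NF-kB genes stand at 0.85 and 0.13, immediate-early factors at 2.32 and 1.57, and quiescence genes at -0.92 and -0.45, while cytosolic chaperones stand close together at 0.61 and 0.57.

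The direction of the 30 leading differences held in every alternative run, with 0 sign changes. The choice of these genes by lowest p in the same arrays favours this, so it is no separate support. When arrays were left out in turn, the number of probe sets past an adjusted p of 0.05 was 13 without IgMG unstimulated array 1, 6 without IgMG unstimulated array 2, 1 without IgM unstimulated array 1 and 1 without IgM HEL array 1, and 0 without any of the other 4. Leaving out IgMG unstimulated array 1 makes the array of high natural killer and myeloid signal the sole unstimulated IgMG array, and the 13 then included Gzma, Klra3 and Cybb, a granzyme, a killer cell receptor and a phagocyte oxidase gene. The 6 probe sets without array 2 were those of Ccl4, Sema4b, Runx1 and Nfatc3 and 2 of Ddx6, an RNA helicase gene. Without both arrays that stood apart 4 passed, those of Runx1, Sema4b and Ddx6. Gzma, Klra3, Cybb and Ddx6 are named because they passed here.

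**Figure D5:**
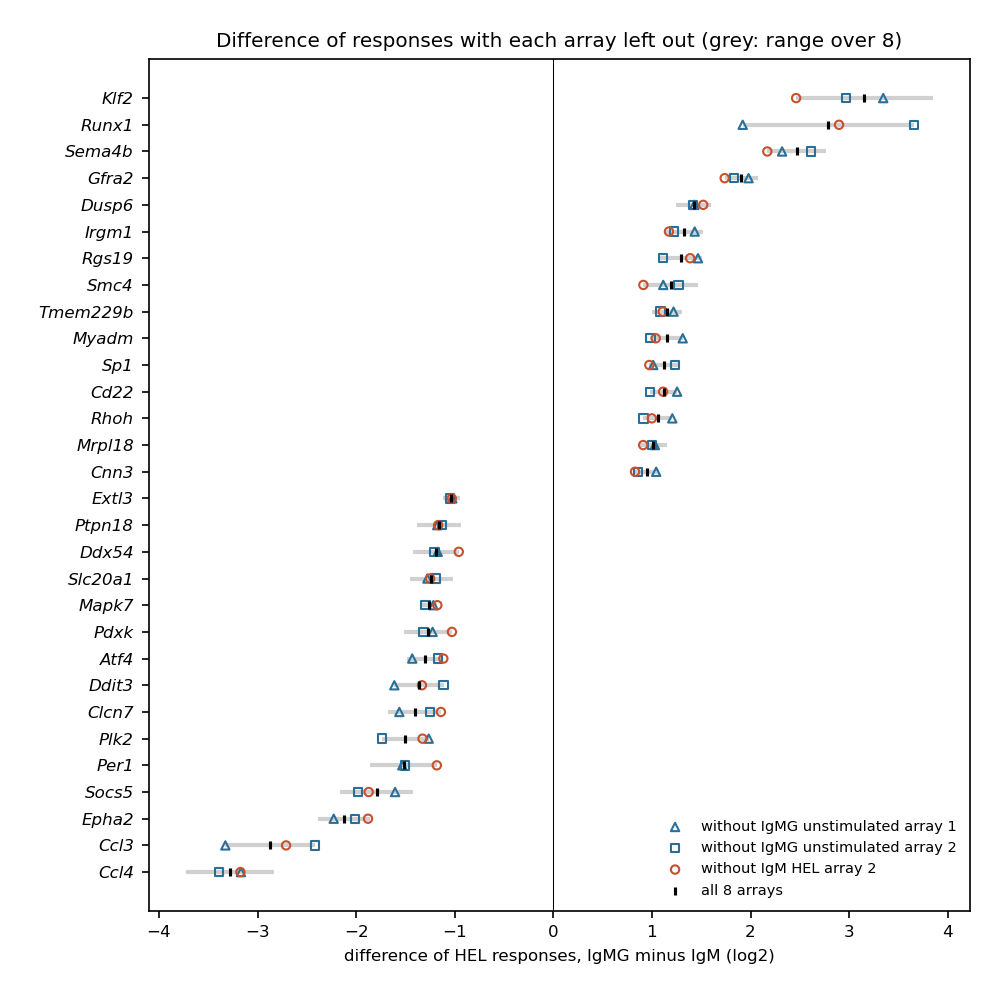
Difference of HEL responses (IgMG minus IgM, log2, horizontal axis) of the 30 leading genes with all 8 arrays (black tick), the range with each array left out (grey bar), and the values without 3 named arrays. No bar crosses 0, which the choice of the genes by lowest p favours, and the bar of Runx1 runs from 1.92 to 3.66.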

How the data were processed

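RNA of 8 pools of sorted cells was hybridised to single-colour oligonucleotide arrays. The authors deposited 1 linear intensity per probe set and array, which the submitters' processing notes credit to MAS 5; the mean after trimming 2% at each end was 150.1 on each array, to which such scaling sets all arrays. Detection calls were not used here. Of 12488 probe sets, 66 controls were left out, and the brightest 60% by mean intensity (lowest mean 24.5) were tested as log2(intensity + 16), which understates changes of dim genes. Symbols came from the platform annotation: 10833 probe sets had 1, 396 several and 1193 none; 10817 matched the GRCm38.p6 gene table. A gene is given by its brightest probe set.

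Tests were two-sided, with limma 3.58.1 in R 4.3.3: a mean fitted for each group in 1 model of all 8 arrays, moderated with a trend by eBayes (4 residual and 4.87 prior degrees of freedom) and Benjamini-Hochberg adjustment over 7453 probe sets. Errors are standard errors of the fit. The named genes are the 15 of lowest p in each direction, up to 3 per list and 17 always named (Ighm, Cd79a, Cd79b, Cd22, Egr1, Egr2, Nr4a1, Myc, Ccl3, Ccl4, Klf2, Cd83, Cd86, Irf4, Nfkbia, Dusp6 and Plk2). Members and lists were chosen with earlier results of these data known. The script was tested on simulated data. There, 6% of simulated differences of responses of 1 log2 and 51% of those of 2 log2 were recovered. Alternatives covered the offset, scaling, filter, trend, a replicate block, the Gapdh ratio, averaging of probe sets and left-out arrays. Figures were drawn with matplotlib 3.10.9.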

Additional observations from a re-analysis of the deposited data

How the results depend on the processing

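The count of 0 probe sets past an adjusted p of 0.05 for the receptor difference became 1 with an offset of 64 and 4 without both arrays that stood apart, and ranged from 0 to 13 with single arrays left out. The 753 probe sets at an unadjusted p under 0.05 were 395 with the Gapdh ratio as covariate, and 437 to 1111 with single arrays left out. The share of these with a smaller IgMG response, 67.2%, was 60.3% with the covariate, 54.3% without both arrays, and 55.4% to 78.3% with single arrays left out. Leaving out an array of 1 receptor makes the mean response and the difference share error, which moves this share by construction, whereas leaving out both arrays does not. Calls in IgM cells (1044) were 605 with the covariate, 696 without both arrays and 339 to 1283 with single arrays left out. Calls in IgMG cells (421) were 256 without a filter, 233 without a trend, 161 with the covariate, 524 without both arrays and 58 to 369 with single arrays left out. Without a filter 1079 probe sets had an unadjusted p under 0.05. The cause of these shifts was not tested.

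Same-numbered arrays of different groups had deviations correlated at -0.160 to 0.0151. No shared deviation was thus seen, but such correlations cannot tell whether a replicate number marks a shared animal or day. With the replicate number as a block, 0 probe sets passed for the receptor difference, 706 had an unadjusted p under 0.05, and calls in IgMG cells were 275.

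Of 87 named genes, 79 kept the sign of their difference in every alternative. When a gene's probe sets were averaged, it was -0.18 for Ptprc (whose IgM response became 0.0063), -0.050 for Hspa4, 0.033 for Nfkbia and -1.01 for Cd83. With the covariate it was 0.014 for Cd79a and -0.41 for Cd83, with quantile normalization -0.019 for Ighm, and without both arrays -0.21 for Cd83. With single arrays left out it ran from -0.32 to 0.082 for Cd79a, -0.38 to 0.073 for Myc, -0.58 to 0.20 for Egr1, -0.13 to 0.37 for Ighm and -0.37 to 0.55 for Cd83. With 2 arrays per group and dim signals in unstimulated cells, the number of arrays limits the precision.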
